A study of Mus musculus with 23 samples.

Results

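The genes described here are 10 transcription factors that carry out commitment to the T-cell lineage: Tcf7, Lef1, Bcl11b, Gata3, Runx1, Ets1, Ets2, Myb, Gfi1 and Sox4. They were chosen by name, as the rows of the deposited RNA-seq table with these symbols, and all 10 were among its 24475 genes. The table covers 23 mouse libraries in 3 groups. The 6 controls were whole thymus of normal C57BL/6 mice. The other 17 were unfractionated spleen of BALB/c mice of genotype Rag2-/-Il2rg-/-, which make no T cells of their own. These hosts carried 1 lobe of newborn thymus as a graft beneath the kidney capsule, and the spleens were taken with T-cell acute lymphoblastic leukemia (T-ALL). The grafts of 14 hosts were wild type, from the congenic line B6.Ly5.1 (WT T-ALL), and those of the other 3 came from Notch3 knockout mice (Notch3 KO T-ALL). Each T-ALL library is the primary tumor of 1 mouse and keeps the number of its label. Tissue and the strain of the animal both part with the comparison of T-ALL and thymus, so neither can be told apart from leukemia. The ages of the sampled mice and any batch were not given in the labels. Because the spleens hold host cells as well, a lower value in these bulk samples can mean fewer cells that express a gene or less of its RNA per cell, and these cannot be told apart.

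A progenitor that enters the thymus receives Notch signals and first turns on Tcf7, which encodes the HMG-box protein TCF-1, and Gata3. Bcl11b, a zinc finger repressor, follows and marks the point at which other blood fates are closed. Runx1, the ETS proteins, Myb, the repressor Gfi1 and the HMG-box proteins LEF-1 and SOX4 act with them in early thymocytes, and Tcf7, Lef1, Gata3, Runx1, Myb and Bcl11b have all been tied to T-ALL in patients or mice as either oncogenes or tumor suppressors.

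Several of these factors bind near the start of genes in the same circuit, so the letters of their motifs were looked up in the 250 bases before the RefSeq start sites (assembly GRCm38.p6, the build of the files). Windows were at hand for 9 of the 10 genes, 15 windows in all, and each motif was searched on both strands. The motif CTTTGA of TCF-1 and LEF-1 occurred in windows of 2 genes, Lef1 and Bcl11b, and in 13.8% of 32851 windows of all genes. The ETS motif GGAAGT occurred in windows of 3 genes, Lef1, Tcf7 and Bcl11b, and in 19.7% of all windows. The motif TGGGAA of RBPJ, the DNA-binding partner of Notch, occurred in the Sox4 window and in 21.6% of all windows. The motif letters of RUNX proteins (TGTGGT, 14.0% of all windows), of the GATA family (AGATAA, 9.99%) and of MYB (AACGG, 14.5%) were in none of the 15 windows. These matches are letters in a window and not bound sites. For the Lef1 and Tcf7 windows with matches, the bases just after the start site were not found in the transcripts of the gene. Those of the Bcl11b and Sox4 windows were found. The stretches of 30 bases around the matches are shown because they lie at members whose levels are followed through the rest of the text, with the motif or its reverse complement in capitals, 5′ to 3′ on the strand of the gene.
Bcl11b, ETS letters 195 bases before a start site inside the gene, chr12:108003592-108003621, minus strand: ctccccttgggtGGAAGTgcgcgttccacc
Bcl11b, TCF/LEF letters 89 bases before a start site inside the gene, chr12:108003486-108003515, minus strand: agaggccaagcaCTTTGAagaagtgtgaga
Tcf7, ETS letters 139 bases before an internal start site, chr11:52282717-52282746, minus strand: tttcccggacaaACTTCCagagtccctaga
Tcf7, ETS letters 26 bases before the same start site, chr11:52282604-52282633, minus strand: tgagctggagtcACTTCCggtgccctgacc
Lef1, TCF/LEF letters 180 bases before an internal start site, chr3:131156102-131156131, plus strand: taaaatacatggTCAAAGgaaaataggtat
Lef1, TCF/LEF letters 120 bases before the same start site, chr3:131156162-131156191, plus strand: cattgtctgttcTCAAAGtcaggtcttgca
Lef1, ETS letters 12 bases before the same start site, chr3:131156264-131156293, plus strand: ctaatttgattgcacacaGGAAGTtataac
Sox4, RBPJ letters 100 bases before the start site, chr13:28953782-28953811, minus strand: gttccaagccaaTGGGAAggacgggggagg

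Levels are given as deposited, as log2(scaled RPKM + 1), where RPKM is reads per kilobase of transcript and depth of the library, scaled so that its 75th percentile is close to 10 in every library. Differences are log2 differences of group means from limma, with the standard error (SE), and a gene is called when its Benjamini-Hochberg adjusted p over all genes tested is under 0.05. Between 10154 and 11011 genes per library reached a scaled RPKM of 1, and the depth of each library is unknown. Notch3 itself checks the labels only in part, since the knockout allele carries lacZ in the first coding exon and RNA from the rest of the gene may persist. Its level was 3.22, 2.59 and 3.74 in the 3 Notch3 KO T-ALL, against 3.17 to 5.78 over the WT T-ALL and 2.62 to 4.29 over thymus, and the difference of -1.56 between the T-ALL groups was not called (SE 0.41, limma adjusted p = 0.101).

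Host cells moved with the groups. The summed scaled RPKM of the 12 erythroid markers in the table was 24.7 to 393 for thymus, 765 to 52078 for WT T-ALL and 31560 to 103461 for Notch3 KO T-ALL, and 11 and 12 of them rose in the respective tumors. Of 9 neutrophil markers (57.3 to 531, 638 to 84683 and 203 to 7587, in the same order) 9 and 3 rose, of 8 macrophage markers (9.52 to 62.9, 23.1 to 390 and 275 to 402) 7 and 8, and of 6 megakaryocyte markers (0.705 to 1.27, 4.27 to 201 and 61.6 to 187) all in both. Of 7 stroma and endothelium markers (32.7 to 38.8, 33.6 to 227 and 51.3 to 96.1) 4 were tested, 3 rose in both and 1 fell in WT T-ALL. B cell markers (6, of which 4 were tested and fell in both) summed to 17.5 to 23.2, 0.524 to 5.80 and 0.654 to 1.54, with Pax5 at 0 in every Notch3 KO T-ALL. Thymic epithelium markers (6, of which 1 was tested and fell in both) summed to 3.82 to 6.41, 0.0215 to 3.32 and 0.215 to 3.80, with Foxn1, Psmb11 and Krt5 at 0 in every Notch3 KO T-ALL. The pan-T genes Cd2, Cd3d, Cd3e, Cd3g, Cd247 and Lck summed to 1910 to 2399, 991 to 2644 and 1213 to 1622, so T-lineage RNA was abundant in every library.

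The first question was how the commitment factors in the leukemias stood against the normal thymus. In WT T-ALL 7 of the 10 fell and none rose, where 22.3% of the 11919 genes tested fell and 29.3% rose. In Notch3 KO T-ALL the same 7 fell and none rose, where 16.3% fell and 21.2% rose. The genes that fell were Ets2, Bcl11b, Myb, Sox4, Tcf7, Ets1 and Gfi1, and those not called were Lef1, Runx1 and Gata3. The median difference of the 10 was -0.83 in WT T-ALL and -0.87 in Notch3 KO T-ALL, beside 0.08 over all genes tested in either comparison. The 2 comparisons share their 6 control libraries. A correction for the GC content and length of transcripts, added after seeing the data, called the same number of members and turned the split over all genes to 24.6% higher and 27.6% lower for WT T-ALL and to 16.9% and 21.8% for Notch3 KO T-ALL.

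**Figure D1:**
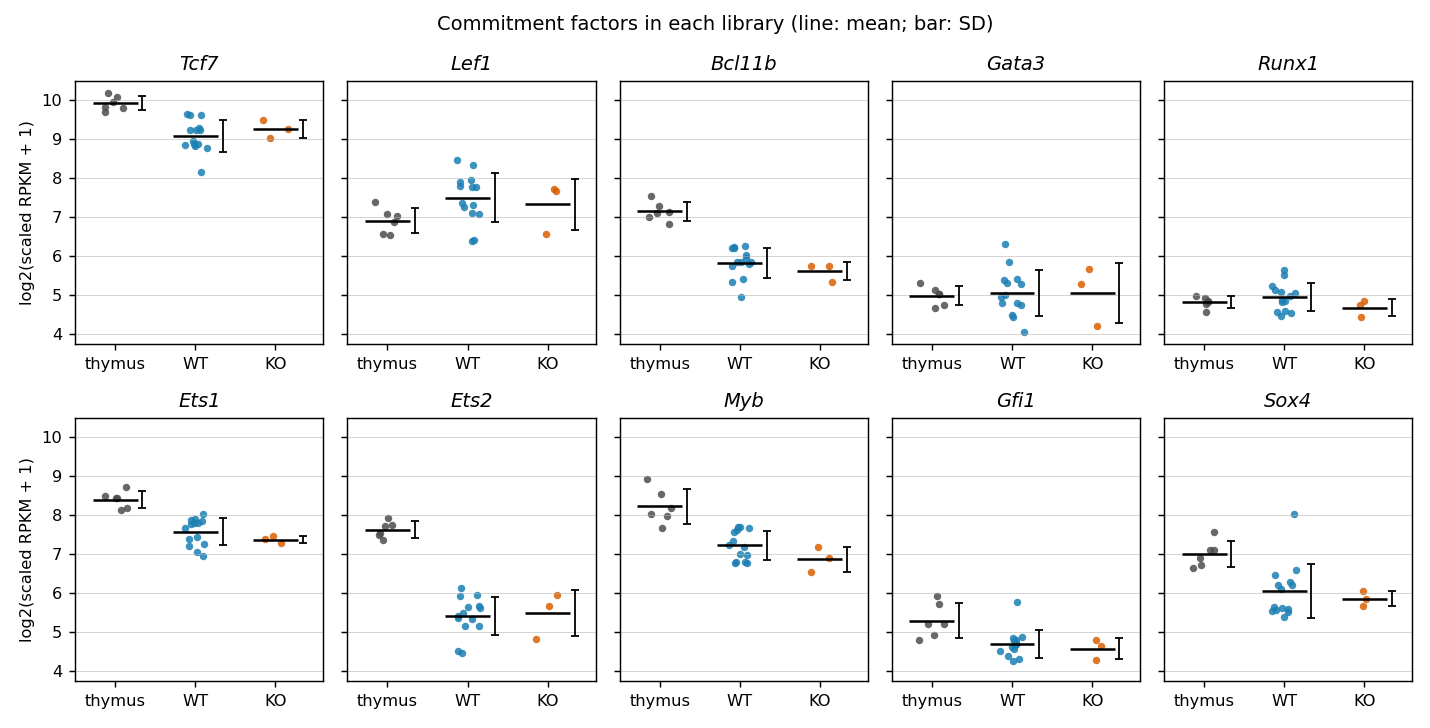
Level of each factor, as log2(scaled RPKM + 1) on the vertical axis, in the 6 thymus, 14 WT T-ALL and 3 Notch3 KO T-ALL libraries; each point is a library, the line is the mean and the bar 1 SD. Ets2 and Bcl11b of every tumor lie below every thymus, Gata3 and Runx1 overlap between groups, and the WT T-ALL point at 8.01 for Sox4 is tumor 7.

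Tcf7 (gene ID 21414, chr11:52246527-52283383), whose product TCF-1 starts the program, was the most abundant of the 10 in every group. It lay at 9.69 to 10.18 in thymus (median 9.89), 8.15 to 9.65 in WT T-ALL (median 9.09) and 9.50, 9.26 and 9.02 in Notch3 KO T-ALL. All 17 tumors were below all 6 thymus libraries. The difference from thymus was -0.84 in WT T-ALL (SE 0.18, limma adjusted p = 0.000442). For Notch3 KO T-ALL it was -0.66 (SE 0.26, limma adjusted p = 0.0453), a call that was lost in 12 of 23 fits that left out 1 library, with adjusted p up to 0.194 without Notch3 KO T-ALL 3. Under quantile normalization the differences of Tcf7 were -1.57 and -1.55, more than 1.5 times the values above.

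Lef1 (gene ID 16842, chr3:131110297-131224357) encodes LEF-1, which binds the same motif as TCF-1 and partly stands in for it. Its level was 6.53 to 7.38 in thymus (median 6.95), 6.39 to 8.47 in WT T-ALL (median 7.56) and 7.68, 6.58 and 7.73 in Notch3 KO T-ALL. Of the WT T-ALL, 7 lay above every thymus and 2 below every thymus, and the groups overlapped. The difference of 0.59 in WT T-ALL (SE 0.26, limma adjusted p = 0.0638) was not called, nor was that of 0.42 in Notch3 KO T-ALL (SE 0.38, limma adjusted p = 0.398). An exact two-sided permutation test of the same WT difference gave an unadjusted p = 0.0456. Without WT T-ALL 7 or without WT T-ALL 110 the WT difference was 0.67 and was called (limma adjusted p = 0.0242 and 0.0251), as it was with array weights (0.58, limma adjusted p = 0.00404). It was smaller and not called under quantile normalization (0.31, limma adjusted p = 0.354), with the GC and length correction (0.51, limma adjusted p = 0.114) and without thymus 1 and 3 (0.40, limma adjusted p = 0.293). The Notch3 KO difference was 0.06 under quantile normalization, 0.79 when tumor 2 of that group was left out and 0.22 when its tumor 3 was, and was not called in any of these.

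Within a library, the level of Tcf7 stood above that of Lef1 by 2.58 to 3.27 on the log2 scale in thymus (median 3.06), by 0.50 to 2.44 in WT T-ALL (median 1.52) and by 1.82, 2.68 and 1.29 in Notch3 KO T-ALL. The median gap was thus 8.35-fold in thymus and 2.87-fold in WT T-ALL. Every WT T-ALL had a narrower gap than every thymus, and Notch3 KO T-ALL 2 alone reached into the thymus range. Tcf7 remained the higher of the pair in all 23 libraries. These gaps are a description with no test.

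**Figure D2:**
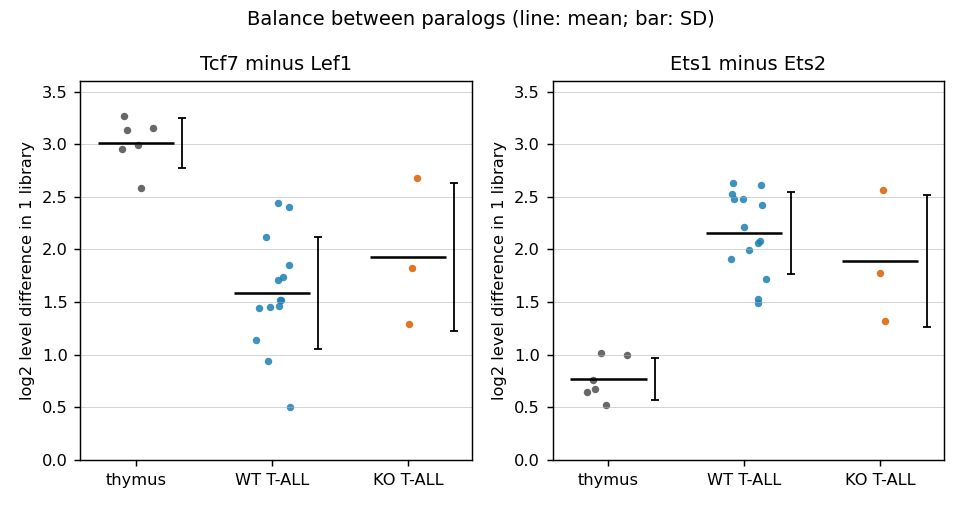
Difference in log2 level between members of the same family within each library (vertical axis), for Tcf7 minus Lef1 on the left and Ets1 minus Ets2 on the right; points are libraries, lines means and bars 1 SD. The Tcf7 to Lef1 gap is narrower in T-ALL (WT mean 1.59, thymus mean 3.01) and the Ets1 to Ets2 gap wider (2.15 against 0.77).

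Sox4 (gene ID 20677, chr13:28948919-28953699), an HMG-box factor of early progenitors, was 6.64 to 7.56 in thymus (median 6.99), 5.37 to 8.01 in WT T-ALL (median 5.87) and 6.05, 5.67 and 5.84 in Notch3 KO T-ALL. In 13 of 14 WT T-ALL it was below every thymus and in the other, tumor 7, above every thymus. It fell by 0.96 in WT T-ALL (SE 0.27, limma adjusted p = 0.00502) and by 1.15 in Notch3 KO T-ALL (SE 0.39, limma adjusted p = 0.0235). The second call was lost without Notch3 KO T-ALL 2 or without Notch3 KO T-ALL 3 (limma adjusted p = 0.0746 and 0.0734).

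Bcl11b (gene ID 58208, chr12:107910403-108004145), the factor that seals commitment, lay at 6.82 to 7.55 in thymus (median 7.11), 4.95 to 6.25 in WT T-ALL (median 5.84) and 5.74, 5.75 and 5.34 in Notch3 KO T-ALL. No tumor reached the lowest thymus. On the scale of RPKM + 1 the group means were 2.49-fold lower in WT T-ALL (log2 difference -1.31, SE 0.17, limma adjusted p = 1.07e-06) and 2.90-fold lower in Notch3 KO T-ALL (log2 difference -1.54, SE 0.24, limma adjusted p = 3.89e-05). It was still expressed in every tumor: its mean in WT T-ALL stood above 88.5% of the genes kept, against 96.7% in thymus.

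Gfi1 (gene ID 14581, chr5:107716655-107725805), a zinc finger repressor that restrains cell cycle entry of progenitors, was at 4.78 to 5.93 in thymus (median 5.21), 4.26 to 5.76 in WT T-ALL (median 4.68) and 4.65, 4.79 and 4.28 in Notch3 KO T-ALL. The groups overlapped, with 11 of 14 WT T-ALL and 2 of 3 Notch3 KO T-ALL below every thymus. It fell by 0.60 in WT T-ALL (SE 0.18, limma adjusted p = 0.00774) and by 0.72 in Notch3 KO T-ALL (SE 0.26, limma adjusted p = 0.0327). The Notch3 KO call was lost without thymus 5, thymus 6, Notch3 KO T-ALL 1 or Notch3 KO T-ALL 3 (limma adjusted p = 0.068, 0.075, 0.0678 and 0.173).

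Gata3 (gene ID 14462, chr2:9857078-9887953), needed from the earliest T-cell progenitor onward, showed no called difference. It was 4.66 to 5.31 in thymus (median 5.03), 4.05 to 6.31 in WT T-ALL (median 4.99) and 5.29, 4.21 and 5.67 in Notch3 KO T-ALL. Among the WT T-ALL, 3 lay below every thymus and 4 above, so the tumors spread to both sides of the controls. The difference was 0.07 in either comparison, with intervals of -0.44 to 0.59 for WT T-ALL (limma adjusted p = 0.822) and -0.68 to 0.82 for Notch3 KO T-ALL (limma adjusted p = 0.898). With the erythroid score of each library as a covariate the differences were 1.29 (SE 0.47, limma adjusted p = 0.0744) and 1.93 (SE 0.70, limma adjusted p = 0.141), and with the pan-T level subtracted they were 0.56 and 0.68, none of them called. Gata3 overlaps the noncoding gene 9230102O04Rik, whose mean level was 0.00 in thymus, 1.16 in WT T-ALL and 0.91 in Notch3 KO T-ALL, and reads of the pair can be told apart only if the counting used strand. Its relative Gata2, a factor of uncommitted progenitors, stayed lower than Gata3 in all 23 libraries, by a median of 4.98 in thymus, 4.29 in WT T-ALL and 4.33 in Notch3 KO T-ALL.

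Runx1 (gene ID 12394, chr16:92601466-92826074), the DNA-binding partner of CBF-beta in blood progenitors and T cells, was at 4.56 to 4.99 in thymus (median 4.84), 4.47 to 5.65 in WT T-ALL (median 4.92) and 4.44, 4.75 and 4.86 in Notch3 KO T-ALL. The groups overlapped, although 6 WT T-ALL lay above every thymus and 2 below. Differences of 0.13 (interval -0.18 to 0.44, limma adjusted p = 0.472) and -0.14 (interval -0.59 to 0.31, limma adjusted p = 0.629) were not called. The second ran from -0.23 without Notch3 KO T-ALL 3 to -0.02 without tumor 1 of that group. The level of Runx1 exceeded that of its relative Runx3 in all 23 libraries, by a median of 1.78 in thymus and 1.63 in WT T-ALL, where it ran from 0.20 to 3.82.

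Ets1 (gene ID 23871, chr9:32636241-32757820), the main ETS factor of T cells, was at 8.11 to 8.71 in thymus (median 8.43), 6.95 to 8.03 in WT T-ALL (median 7.71) and 7.45, 7.27 and 7.37 in Notch3 KO T-ALL. All 17 tumors lay below all thymus libraries. It fell by 0.83 in WT T-ALL (SE 0.15, limma adjusted p = 0.000121) and by 1.03 in Notch3 KO T-ALL (SE 0.22, limma adjusted p = 0.00102).

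Ets2 (gene ID 23872, chr16:95702407-95721049), its closest relative, showed the largest difference among the 10. Its level was 7.35 to 7.92 in thymus (median 7.62), 4.47 to 6.13 in WT T-ALL (median 5.44) and 5.67, 5.95 and 4.82 in Notch3 KO T-ALL. The highest tumor was more than 1 log2 unit below the lowest thymus. On the scale of RPKM + 1 the means were 4.63-fold lower in WT T-ALL (log2 difference -2.21, SE 0.21, limma adjusted p = 1.92e-08) and 4.41-fold lower in Notch3 KO T-ALL (log2 difference -2.14, SE 0.30, limma adjusted p = 1.28e-05). With both ETS genes lower, the gap between Ets1 and Ets2 widened from a median of 0.72 in thymus (0.52 to 1.02) to 2.15 in WT T-ALL (1.49 to 2.63), and was 1.78, 1.32 and 2.56 in Notch3 KO T-ALL, with no overlap between thymus and tumors.

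Myb (gene ID 17863, chr10:21124930-21160984), which keeps progenitors and early thymocytes dividing and alive, was at 7.66 to 8.92 in thymus (median 8.10), 6.76 to 7.69 in WT T-ALL (median 7.20) and 6.54, 7.18 and 6.88 in Notch3 KO T-ALL. Of the WT T-ALL, 11 of 14 were below every thymus, as were all 3 Notch3 KO T-ALL. It fell by 1.00 in WT T-ALL (SE 0.19, limma adjusted p = 0.000132) and by 1.35 in Notch3 KO T-ALL (SE 0.27, limma adjusted p = 0.000513).

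Taken by overlap alone, 4 of the 10 genes (Tcf7, Bcl11b, Ets1 and Ets2) were lower in every WT T-ALL than in every thymus, where 6.64% of the 11919 genes were, and 6 (these and Myb and Sox4) were lower in every Notch3 KO T-ALL, where 18.4% were. The order of mean levels was Tcf7, Ets1, Myb, Ets2, Bcl11b, Sox4, Lef1, Gfi1, Gata3 and Runx1 in thymus and Tcf7, Ets1, Lef1, Myb, Sox4, Bcl11b, Ets2, Gata3, Runx1 and Gfi1 in WT T-ALL. Neighbors in the WT order were often not separated: Ets1 exceeded Lef1 in 8 of 14 libraries and Gata3 exceeded Runx1 in 7 of 14, whereas Tcf7 exceeded Ets1 in all 14. Lef1 thus stood at rank 7 of the 10 in thymus and at rank 3 in WT T-ALL.

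**Figure D3:**
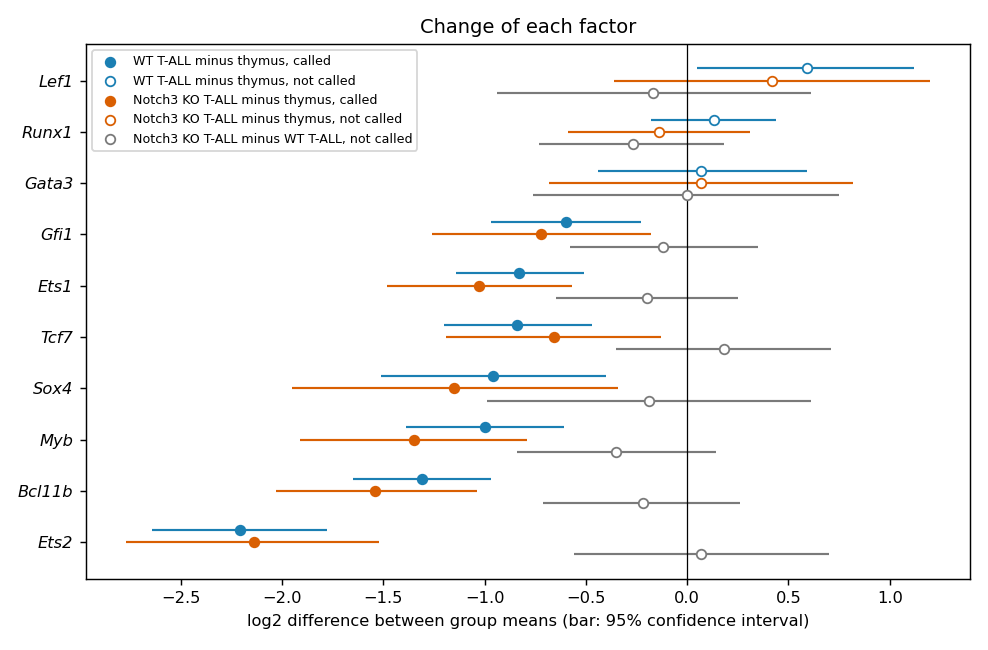
Difference of each factor between group means on the log2 scale (horizontal axis), with 95% confidence intervals; filled points are called by limma (adjusted p under 0.05) and open points are not. Both comparisons with thymus lie left of 0 for the same 7 genes, from Gfi1 (-0.60 in WT T-ALL) to Ets2 (-2.21), and every interval for Notch3 KO T-ALL minus WT T-ALL spans 0.

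The calls depended on how host cells were handled, and the part of host cells in them was not tested. With the erythroid score of each library as a covariate, 1 of the 10 was called lower in WT T-ALL (5.44% of all genes) and 1 in Notch3 KO T-ALL (0.856%), in both cases Ets2, at -2.54 (SE 0.45, limma adjusted p = 0.000965) and -2.65 (SE 0.68, limma adjusted p = 0.0406). The other 6 lost their calls with larger standard errors and unequal moves. In WT T-ALL Ets1 was as large as before at -0.87 (SE 0.33, limma adjusted p = 0.0937), Bcl11b was at -0.67, Myb at -0.52 and Tcf7 at -0.28, and Gfi1 at 0.30 and Sox4 at 0.39 turned in sign. In Notch3 KO T-ALL Ets1 was at -1.09 (SE 0.50, limma adjusted p = 0.247). Bcl11b was at -0.55 there (SE 0.49, limma adjusted p = 0.58) and Myb at -0.63 (SE 0.59, limma adjusted p = 0.605), and Tcf7, Gfi1 and Sox4 turned in sign. That score does not overlap between thymus and T-ALL, so the covariate and the group are nearly the same split. With the mean level of the pan-T genes subtracted in each library, which moved the median of all genes to 0.57 in WT T-ALL and 0.69 in Notch3 KO T-ALL, Ets2 (-1.72, adjusted p = 5.87e-07) and Bcl11b (-0.82, adjusted p = 0.0104) were called lower by limma in WT T-ALL (5.54% of all genes) and Lef1 (1.08, adjusted p = 0.000257) and Runx1 (0.62, adjusted p = 0.0127) higher (50.2% of all genes). Relative to the shifted median these 4 differences were -2.29, -1.39, 0.51 and 0.05, as before the subtraction. Tcf7 (-0.35), Ets1 (-0.33), Myb (-0.51), Gfi1 (-0.11) and Sox4 (-0.46) lost their calls in WT T-ALL. Relative to the median they too were as before. In Notch3 KO T-ALL the same step left Ets2 lower (-1.53, limma adjusted p = 0.000427, 2.7% of all genes) and Lef1 higher (1.03, limma adjusted p = 0.0126, 40.2% of all genes). There Bcl11b (-0.93, limma adjusted p = 0.0518), Myb (-0.74), Sox4 (-0.54), Ets1 (-0.42), Gfi1 (-0.11) and Tcf7 (-0.05) lost their calls. With the 7 WT T-ALL in which hemoglobin made up less than 1% of the summed RPKM, 5 of the 10 were lower (21.2% of all genes): Ets2 at -2.19, Bcl11b at -1.13, Myb at -0.89, Ets1 at -0.76 and Tcf7 at -0.63. With 7 fewer tumors the calls of Gfi1 (-0.50, limma adjusted p = 0.0888) and Sox4 (-0.71, limma adjusted p = 0.0913) were lost.

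The second question was whether loss of Notch3 in the donor changed these factors. The study does not give the strain of the Notch3 knockout donors, so donor strain may part with this comparison too. None of the 10 was called between Notch3 KO T-ALL and WT T-ALL by limma, none had an unadjusted p under 0.05, and the exact permutation test gave the same count of 0. Of the 11677 genes tested, 0.591% passed as higher and 0.0257% as lower, and the share at an unadjusted p under 0.05 was 8.51%. The largest difference in this fit was that of Myb, -0.35 (interval -0.84 to 0.14, limma adjusted p = 0.841), which ran from -0.51 without Notch3 KO T-ALL 2 to -0.19 without its tumor 1. With array weights or the erythroid score as a covariate that of Gata3 was 0.46 and 0.63, also not called. With 3 tumors in 1 group the intervals were wide and leave room for sizable differences in either direction: -0.35 to 0.71 for Tcf7, -0.71 to 0.26 for Bcl11b, -0.76 to 0.75 for Gata3, -0.94 to 0.61 for Lef1 and -0.99 to 0.61 for Sox4. The Notch3 KO tumors also differed among themselves, with tumor 2 the lowest of the 3 in Lef1 and Gata3 and the highest in Ets2. Its hemoglobin share was 15.5%, against 4.05% in tumor 1 and 9.27% in tumor 3. Its neutrophil marker sum of 203 (6719 and 7587 in the others) and its pan-T level of 7.32 were the lowest of the 3.

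From tumor to tumor, the WT T-ALL had between 5 and 8 of the 10 factors below every thymus and between 0 and 3 above. The share of all genes outside the thymus range was not counted for each tumor, so these numbers only describe the members. The SD over the 14 tumors was above that of the 6 thymus libraries for 8 of the 10 genes, near the share of 86.5% over the 11757 genes tested for spread. It was largest for Sox4 (0.69), Lef1 (0.62) and Gata3 (0.59), where the median SD over the genes kept was 0.41 in WT T-ALL and 0.23 in thymus. For Myb (0.38 against 0.45) and Gfi1 (0.36 against 0.45) thymus varied more. A test of the absolute deviations from the group medians called none of the 10 wider in WT T-ALL by limma (smallest adjusted p = 0.351), with none at an unadjusted p under 0.05, and called 0 of 11757 genes wider although 15.2% had an unadjusted p under 0.05. With no gene called at these group sizes, the test cannot say whether any member differs in spread.

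**Figure D4:**
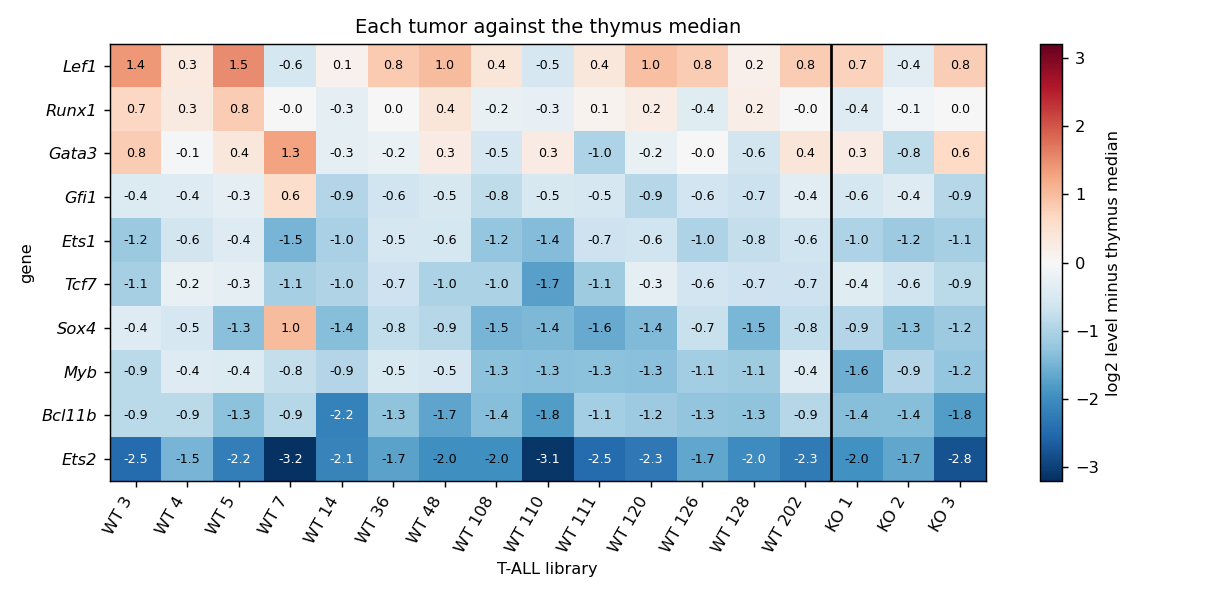
Level of each factor (rows) in each T-ALL library (columns) minus the median of the 6 thymus libraries, on the log2 scale; the black line parts the 14 WT T-ALL from the 3 Notch3 KO T-ALL. The Ets2 and Bcl11b rows are below 0 in every tumor, Lef1 and Gata3 vary in sign, and WT T-ALL 7 combines high Sox4, Gata3 and Gfi1 with low Lef1, Ets1 and Ets2.

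WT T-ALL 7 stood apart from the other tumors. It had the highest Sox4 (8.01, the next being 6.59 in tumor 3), the highest Gfi1 (5.76, next 4.88 in tumor 5) and the highest Gata3 (6.31, next 5.84 in tumor 3). In the same tumor Lef1 (6.39), Ets1 (6.95) and Ets2 (4.47) were the lowest of the 14. Its hemoglobin share was the lowest of the T-ALL at 0.0874%, and its pan-T level of 7.14 was also the lowest.

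WT T-ALL 110 had the lowest Tcf7 (8.15, next 8.76 in tumor 111) and the second lowest Lef1 (6.41), Bcl11b (5.33), Ets1 (7.05) and Ets2 (4.51). It also carried by far the most neutrophil RNA, with a marker sum of 84683 against 17495 in the next tumor. Its pan-T level of 7.19 was the second lowest of the T-ALL. Across the 14 WT T-ALL, no member's slope on the level of the neutrophil markers was called by limma, where 6.79% of genes were, and 4 of the 10 had an unadjusted p under 0.05, where 16.6% of genes did. The lowest was that of Tcf7 (slope -0.16, SE 0.05, limma adjusted p = 0.0799). For the erythroid, macrophage and pan-T levels no member's slope was called either (0.688%, 4.41% and 0.183% of genes), and 3, 2 and 3 members had an unadjusted p under 0.05 (12.2%, 11.8% and 18.3% of genes). The part of host cells in these low values was not tested further.

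Other tumors had extremes of their own. WT T-ALL 14 had the lowest Bcl11b at 4.95. WT T-ALL 5 had the highest Lef1 (8.47), Runx1 (5.65) and Ets1 (8.03), and WT T-ALL 3 the highest Bcl11b (6.25) with the second highest Lef1 (8.33). WT T-ALL 4 was highest in Tcf7 (9.65), Ets2 (6.13) and Myb (7.69), and WT T-ALL 111 lowest in Gata3 (4.05) and Sox4 (5.37). From the lowest to the highest WT tumor the level of Sox4 spanned 6.26-fold, that of Gata3 4.80-fold and that of Lef1 4.23-fold, and that of Myb 1.92-fold.

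Over the 14 WT T-ALL, all 45 pairs of the 10 factors were compared, and Pearson's r was positive in 34, negative in 10 and 0.00 in the other, with a median of 0.36. No such count was made over pairs of other genes, so it is a description only. The pair with the highest r was Gfi1 and Sox4 (r = 0.84, permutation p = 0.00369; rho = 0.60, permutation p = 0.0253). The slope of Sox4 on Gfi1 was the only one called by limma over all genes (1.60, SE 0.29, adjusted p = 0.0186), where 0.959% of 11475 genes had a called positive slope on Gfi1. It rested on WT T-ALL 7: without tumors 7 and 14, the farthest from the median of Gfi1, r was 0.45, without tumor 7 alone it was 0.48 and no slope between members was called. The call was also lost with the erythroid score as a covariate, where r of the residuals was 0.74. The 3 members with an unadjusted p under 0.05 on the erythroid markers were Gfi1 (slope -0.20, SE 0.07, limma adjusted p = 0.292), Sox4 (-0.34, SE 0.12, limma adjusted p = 0.292) and Gata3 (-0.27, SE 0.11, limma adjusted p = 0.351), all lower where erythroid RNA was higher. The part of erythroid cells in the likeness of these genes was not tested further.

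Gata3 varied together with Sox4 (r = 0.79, permutation p = 0.00081; rho = 0.78, permutation p = 0.00156) and with Gfi1 (r = 0.76, permutation p = 0.00174; rho = 0.79, permutation p = 0.0012) by these unadjusted tests. Without tumor 7 alone r was 0.64 with Sox4 and 0.57 with Gfi1. Without tumors 7 and 111, the farthest from the median of Gata3, r was 0.56 and 0.75, and on residuals from the erythroid score it was 0.70 and 0.63. Tcf7 and Ets1 had r = 0.69 (permutation p = 0.00493) and rho = 0.68 (permutation p = 0.00886), and r = 0.59 without tumors 4 and 110. None of these slopes passed the limma test over all genes (lowest adjusted p = 0.0513 for Gata3 on Gfi1). The lowest r was that of Ets2 and Gfi1 (r = -0.52, permutation p = 0.0691; rho = -0.30, permutation p = 0.303), and it was -0.01 without tumors 7 and 110. Tcf7 and Lef1, which share a motif, had r = 0.54 (permutation p = 0.0453) and rho = 0.34 (permutation p = 0.233), with r = 0.47 without tumors 4 and 110.

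**Figure D5:**
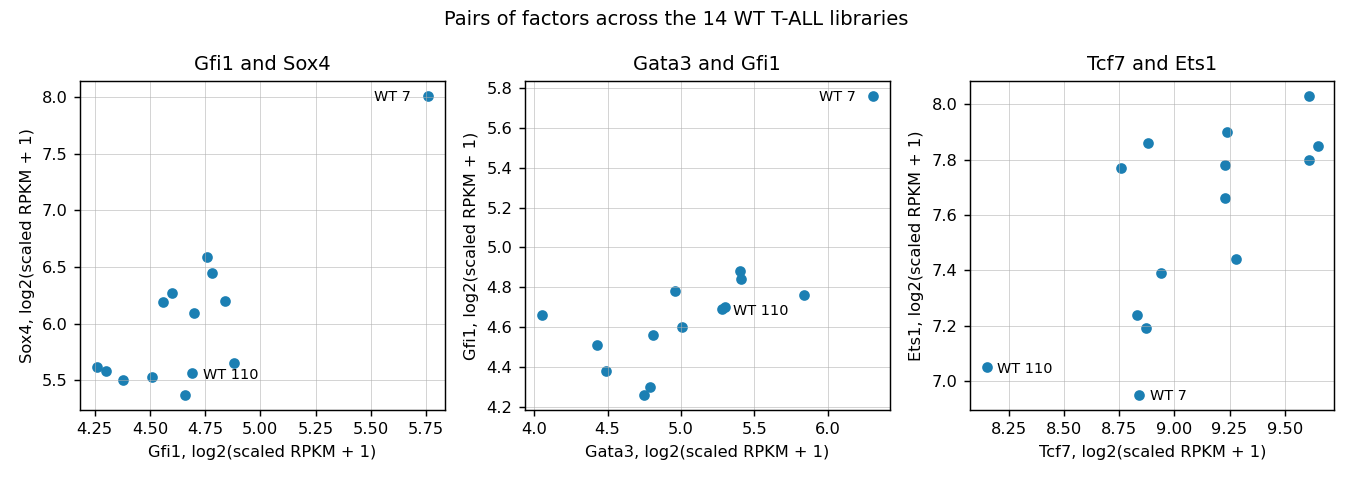
Levels of 3 pairs of factors in the 14 WT T-ALL libraries, as log2(scaled RPKM + 1) on both axes, 1 point per tumor with tumors 7 and 110 marked. Tumor 7 stands alone at the upper right of the Gfi1 and Sox4 plot and of the Gata3 and Gfi1 plot, and the Tcf7 and Ets1 plot has tumors 7 and 110 at its lower left.

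Likeness over the same 14 tumors was also looked up among 7992 genes with a mean scaled RPKM of at least 5. The nearest genes had r between 0.79 and 0.92. In each library both genes of a pair share its depth and its host cells, and these values carry no test. Lef1 was nearest to Cd3e (r = 0.84), a chain of the T-cell receptor complex, and Cd2bp2 (0.79). Sox4 was nearest to Mib2 (0.92), a ubiquitin ligase for Notch ligands, and Cbfa2t3 (0.92), a corepressor of blood progenitors. Gfi1 was nearest to Ankrd11 (0.92) and Ppcdc (0.92), Bcl11b to Taok2 (0.91) and Tnpo2 (0.90), and Ets1 to Wdr20 (0.90) and Tlk2 (0.89). For Tcf7 these were C2cd3 (0.89) and Airn (0.88), for Ets2 Arhgef10l (0.89) and AW011738 (0.88), for Myb Rexo4 (0.87) and Cep170 (0.86), for Gata3 the mitochondrial gene ND6 (0.86) and Mon1a (0.85), and for Runx1 Cbll1 (0.84) and Pnn (0.83). Airn and ND6 lie opposite other transcripts, and reads of the 2 strands can be told apart only if the counting used strand, which the sources used here do not give.

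The wider circuit was followed in lists of related genes. Of 19 family relatives of the members, 18 were tested and 8 rose and 2 fell in WT T-ALL (5 and 2 in Notch3 KO T-ALL), with a median difference of 0.38 in both comparisons, where 29.3% of all genes rose and 22.3% fell in WT T-ALL and 21.2% and 16.3% did in Notch3 KO T-ALL. The largest rises were those of Gata1 (2.51 in WT T-ALL, SE 0.34, limma adjusted p = 2.49e-06) and Gfi1b (2.30, SE 0.37, limma adjusted p = 2.51e-05), both factors of red cell and platelet precursors. Elf1 (-1.05, SE 0.16, limma adjusted p = 1.73e-05) and Fli1 (-0.56, SE 0.18, limma adjusted p = 0.0117), ETS factors of lymphoid and other blood cells, fell. The erythroid markers given above rose in the same libraries, 11 of 12 in WT T-ALL and 12 of 12 in Notch3 KO T-ALL, and their part in Gata1 and Gfi1b was not tested.

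Of 16 cofactors, 1 rose and 5 fell in WT T-ALL, and 1 rose and 1 fell in Notch3 KO T-ALL, with medians of -0.29 and -0.15. Over all genes 29.3% rose and 22.3% fell in WT T-ALL, and 21.2% rose and 16.3% fell in Notch3 KO T-ALL. Tle4, a Groucho corepressor that TCF-1 and LEF-1 recruit, fell by 2.06 in WT T-ALL (SE 0.24, limma adjusted p = 3.82e-07) and by 1.21 in Notch3 KO T-ALL (SE 0.35, limma adjusted p = 0.0088). Tle2 of the same family fell by 1.68 in WT T-ALL (SE 0.35, limma adjusted p = 0.000417). Zfpm1, the cofactor FOG-1 of GATA proteins, rose by 0.94 in WT T-ALL (SE 0.28, limma adjusted p = 0.00697) and by 1.55 in Notch3 KO T-ALL (SE 0.40, limma adjusted p = 0.0042). The part of erythroid and megakaryocyte cells in its rise was not tested.

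Of 14 factors that are shut down when thymocytes commit, 11 were tested, among them Spi1, Bcl11a, Gata2 and Erg, which are also counted as relatives. In WT T-ALL 7 rose and none fell, and in Notch3 KO T-ALL 5 rose and none fell, with medians of 1.39 and 1.49, beside shares over all genes of 29.3% and 21.2% that rose and 22.3% and 16.3% that fell. Lmo2, a partner of TAL1 in stem cells, erythroid cells and many T-ALL, was at 0.40 to 1.08 in thymus, at 2.90 to 5.70 in the WT tumors and at 4.70 to 6.04 in the Notch3 KO tumors, with no overlap of thymus and tumors. It was 3.28 higher in WT T-ALL (SE 0.32, limma adjusted p = 4.01e-08). Tal1 was 3.09 higher in WT T-ALL (SE 0.37, limma adjusted p = 4.83e-07) and 5.03 higher in Notch3 KO T-ALL (SE 0.53, limma adjusted p = 2.82e-07). Erythroid cells also express both genes, and their part in these rises was not tested. Of 9 neutrophil and 8 macrophage markers, 9 and 7 rose in WT T-ALL and 3 and 8 in Notch3 KO T-ALL. The part of those cells in the list was not tested either.

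Of 17 T-cell identity genes, none rose, and 10 fell in WT T-ALL and 9 in Notch3 KO T-ALL, with medians of -0.57 and -0.81, beside 22.3% and 16.3% of all genes that fell and 29.3% and 21.2% that rose. Rag1 and Rag2, the recombinase genes that thymocytes use to rearrange their receptors, fell most, with differences of -3.63 (SE 0.67, limma adjusted p = 0.000115) and -2.48 (SE 0.71, limma adjusted p = 0.00588) in WT T-ALL. Of the 6 pan-T genes, which belong to that list, Cd247 (-1.53, limma adjusted p = 2.7e-06) and Lck (-0.90, limma adjusted p = 0.000134) fell in WT T-ALL and the list's median was -0.21. Between Notch3 KO T-ALL and WT T-ALL no gene of these lists was called by limma.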

How the data were processed

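RNA-seq libraries from 6 thymus, 14 WT T-ALL and 3 Notch3 KO T-ALL samples were analysed, grouped by their labels. Libraries came from a stranded mRNA kit. Per the study's methods the authors used ArrayStudio and its aligner OSA to map reads to the transcriptome of mm10 and to quantify genes; whether counting used strand is not given in the sources used here. The deposited values are log2 values. Their scale was read from the table: the columns start at 0 and their 75th percentiles lie between 3.458 and 3.4594, which fits log2(RPKM + 1) with the 75th percentile of RPKM scaled close to 10. The offset makes fold changes of low genes too small. No counts are in the table, so depth per library is unknown and no interval that needs it is given. Spreadsheet dates in 27 symbols were restored by gene ID. Of the members, Tcf7, Gata3, Runx1 and Sox4 overlap other annotated genes.

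A gene was tested where 3 or more of the fitted libraries reached a scaled RPKM of 1 (11919, or 11677 for the T-ALL groups alone), and all 10 members passed. limma 3.58.1 in R 4.3.3 (trend, robust, Benjamini-Hochberg) was fitted to the whole table, with 3 groups in 1 fit for the comparisons with thymus. Each library was taken as 1 mouse, as the study describes its T-ALL and thymus expression values, although the labels do not say so for thymus. Correlations used 100000 permutations, two-sided, over 45 pairs in scipy, and the exact permutation tests of group means were two-sided. The fits were tested on simulated data, where a pass was required only for changes larger than those of most members. For slopes it was required at a high correlation, and for spread only with larger groups than these. No power for smaller changes is given here. Alternatives changed the offset, the filter, the scaling, the covariates and the libraries. The members, lists, naming rule and tests were chosen with earlier results of these data known. The rule names every member, up to 2 rises and 2 falls of a list with the largest called differences, and the 2 genes nearest to each member, leaving out receptor, immunoglobulin, hemoglobin, ribosomal and predicted genes. Positions and promoter letters are from RefSeq on GRCm38.p6.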

Additional observations from a re-analysis of the deposited data

How the results depend on the processing

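The 7 lower calls in each comparison with thymus kept that count under other offsets, a stricter filter, quantile or trimmed mean scaling, and correction for GC and length, and no member was called between Notch3 KO T-ALL and WT T-ALL in any setting. With no filter the Notch3 KO count was 6 (Tcf7 at adjusted p = 0.0511). Counting calls in both directions, WT T-ALL against thymus had 1 with the erythroid score as covariate (lower), 4 with the pan-T level subtracted (2 higher, 2 lower), 2 with the replicate block (lower) and 3 in the same libraries with no block (1 higher, 2 lower). Notch3 KO T-ALL against thymus had 1 with the erythroid score (lower) and 2 with the pan-T level subtracted (1 higher, 1 lower). Leaving out 1 library gave 7 to 8 calls for WT T-ALL, the additional one being Lef1, higher, without tumor 7 or 110 (array weights also gave 8, with Lef1), and 4 to 7 lower calls for Notch3 KO T-ALL (4 when its tumor 3 was left out), 0 to 0 for the T-ALL groups and for the spread, and 0 to 3 called member pairs. The erythroid score as covariate left 0 pairs. Over all genes, the calls between the T-ALL groups ran from 2 (offset 0.01) to 324 (array weights), against 72 as reported, and with the erythroid score they numbered 1271 in WT T-ALL and 227 in Notch3 KO T-ALL, against 6150 and 4475 as reported. The cause of these changes was not tested.

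Replicate numbers shared between groups (3, 4 and 5 for WT T-ALL, 1, 2 and 3 for Notch3 KO T-ALL) did not pair the samples: correlations of same-numbered deviations were -0.235, 0.0935 and 0.131, and 0.0358, -0.0278 and 0.151. The block gave 2 and 5 called members, where it called 18.4% and 33.5% of all genes, and the same libraries with no block gave 3 and 5, where 21.4% and 35.1% were called.

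Signs that turned were as follows. With the erythroid score, in WT T-ALL Gfi1 was 0.30 and Sox4 0.39, in Notch3 KO T-ALL Tcf7 was 0.19, Runx1 0.48, Gfi1 0.65 and Sox4 0.91, and between the T-ALL groups Bcl11b was 0.11, Gata3 0.63, Ets2 -0.10, Gfi1 0.28 and Sox4 0.55. Gata3 in WT T-ALL was -0.08 with array weights, -0.05 with the GC and length correction and -0.07 without thymus 1 and 3, which stood apart in GC. In Notch3 KO T-ALL Gata3 was -0.01 and -0.02 with quantile and trimmed mean scaling, -0.11 with the GC and length correction and -0.07 without thymus 1 and 3, and Runx1 was 0.47 with the pan-T level subtracted. Between the T-ALL groups array weights gave Lef1 at 0.03, Gata3 at 0.46 and Ets2 at -0.25, the pan-T level gave Gata3 at 0.11, and the GC and length correction gave Ets2 at -0.01. Leaving out 1 library, Gata3 ran from -0.02 to 0.15 in WT T-ALL, from -0.24 to 0.49 in Notch3 KO T-ALL and from -0.31 to 0.42 between the T-ALL groups, where Lef1 ran from -0.36 to 0.21, Ets2 from -0.17 to 0.40 and Gfi1 from -0.23 to 0.03. The GC and length corrections, the fit without thymus 1 and 3, the fit of WT T-ALL with little hemoglobin, the same libraries with no block and leaving out tumors for the pairs were chosen after seeing the data.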
